A study of Mus musculus with 4 samples.

Results

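RNA polymerase II and its general transcription factors are the proteins that start and release transcription of every protein-coding gene. Here their mRNAs were followed in the mouse zygote, the single cell formed at fertilisation. The genes were chosen by name: 48 listed symbols were looked up among the 55291 features of the deposited count table, and all 48 were present. They are 13 polymerase subunit genes, 3 genes of the TATA-binding protein (TBP) family, 13 TBP-associated factors (TAFs) of the TFIID complex, 2 of TFIIA, 1 of TFIIB, 2 of TFIIE, 2 of TFIIF, 6 of the TFIIH core, 3 of the CDK-activating kinase and 3 of the elongation kinase P-TEFb. The lookup by name used no expression value, though the list was chosen with earlier results of these data known.

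RNA of zygotes was sequenced in 4 samples, 1 per group: an H3.3 MO injected sample, its own control, an H3.3 S31A injected sample, and a second control that belongs to it. H3.3 is the histone H3 variant placed on chromatin outside DNA replication. MO is not spelled out in the labels; in embryo work it is the common short form of morpholino, an antisense oligonucleotide made by synthesis, and S31A would in usual notation be a change of serine to alanine. All groups are labelled only as zygotes, so strain, age, time after injection, number of embryos and what the controls received are not given in the sources used here. Each sample had 2 count columns of unstated origin, called libraries 1 and 2 below, and with 1 sample per group no difference between groups has a replicate check.

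A gene is read into mRNA when TFIID, made of TBP and the TAFs, binds its promoter, TFIIA and TFIIB join, and TFIIF brings in the polymerase. TFIIE and TFIIH then open the DNA, the CDK-activating kinase within TFIIH marks the tail of the largest subunit, and P-TEFb releases a paused polymerase. In mouse oocytes a TBP paralog, Tbpl2, takes the place of TBP, and the zygote inherits maternal mRNA while its own genome is only beginning to be read.

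Depth was 5661621 to 13233371 counts per library. The H3.3 genes were checked first: H3f3b had 2.30 and 10.48 CPM in MO injected and 2199 and 1550 CPM in MO control libraries (log2 ratio -8.34), where CPM are counts corrected for the depth of each library, and H3f3a had 8.04 and 52.4 CPM against 462 and 586 CPM (-4.22). H3f3b had 2438 and 2749 CPM in S31A injected and 1453 and 1819 CPM in S31A control libraries, and H3f3a had 484.5 and 648 CPM against 657 and 563 CPM, with overlap. The 12 oocyte and zygote markers summed to 7043 to 17250 CPM per library, with none at 0 in all libraries. The 10 cumulus and granulosa cell markers summed to 51.0 to 168 CPM, and 6 of them, Fshr, Amh, Foxl2, Has2, Ptx3 and Tnfaip6, had no count in any library. Most of that sum was Cyp19a1, at 165 and 66.4 CPM in the S31A injected, 35.0 and 90.2 CPM in the S31A control, 87.9 and 53.3 CPM in the MO injected and 44.0 and 47.2 CPM in the MO control libraries. Sperm and testis markers summed to 1.30 to 6.74 CPM, with Prm1, Tnp1, Tnp2 and Acr at 0 and Prm2 at no more than 5.36 CPM, and blood markers to at most 0.856 CPM. The 8 genes of a 2-cell embryo list, a later stage, summed to 321 and 203 CPM in the S31A injected, 215.5 and 68.4 CPM in the S31A control, 157 and 45.7 CPM in the MO injected and 118 and 111 CPM in the MO control libraries. Tcstv1 and Tcstv3 led that list, and S31A injected library 2 also held Zscan4c at 15.3 and Zscan4d at 31.8 CPM. The part of other cell types and of stage in the results below was not tested.

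The 48 genes together held a small and even share of the RNA: 0.458% and 0.459% of counts in the MO injected libraries, 0.448% and 0.450% in the MO control libraries, 0.415% and 0.383% in the S31A injected libraries, and 0.386% and 0.384% in the S31A control libraries. Just 6 genes, Taf7, Taf3, Gtf2b, Taf4, Gtf2a1 and Polr2c, carried 61.6% to 68.8% of these counts in each library. Between 37 and 46 of the 48 genes had at least 1 count in a library, the lowest number being in S31A control library 1.

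Levels per gene length, in TPM (counts divided by gene length and scaled to the same total in each library), were very unequal within each complex. The processing notes name the aligner Bowtie2, which does not split reads across introns. The part of this in the levels here and below was not tested. The subunits of the polymerase are needed in 1 copy each, but Polr2d had a median over the 8 libraries of 182 TPM (lowest 89.3, highest 335) and Polr2c one of 121 TPM (80.9 to 238.5). Polr2a, the catalytic subunit with the phosphorylated tail, had a median of 2.56 TPM (0 to 8.32), and Polr2b, which forms the active cleft with it, one of 8.16 TPM (0.843 to 24.3). The subunits shared with RNA polymerases I and III were low to moderate, with medians of 16.7 TPM for Polr2e, 10.4 for Polr2f, 4.88 for Polr2h, 0.183 for Polr2l and 0 for Polr2k. Polr2k had a count in 3 of the 8 libraries.

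In TFIID the order of levels was led by Taf7, a partner of Taf1 (median 507.5 TPM, 308 to 745), followed by Taf3, which reads a methyl mark of active promoters (218 TPM, 73.9 to 435.5), and Taf4, a scaffold of the complex (213.5 TPM, 115 to 329). Taf6 stood at 2.40 TPM (0.244 to 4.48), Taf10 at 0.161 TPM (0 to 8.87) and Taf9 at 0 in every library. Of the TBP family, Tbpl2 had a median of 24.5 TPM (0 to 30.4), Tbp 19.6 TPM (9.25 to 26.4) and Tbpl1, known for its role in spermatids, 5.21 TPM (0.126 to 16.3). The ranges of Tbpl2 and Tbp overlapped in TPM, a scale that rests on the deposited lengths of 1379 bases for Tbpl2 and 13576 bases for Tbp. In CPM, which takes no account of length, Tbpl2 had 0 to 16.9 and Tbp 50.1 to 154. Gtf2b, which sets the start site, was high at 233 TPM (104 to 373). Among the kinases, Cdk9 of P-TEFb had 13.2 TPM (0 to 21.0) and Cdk7 of the CDK-activating kinase 4.89 TPM (0.369 to 9.37).

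**Figure D1:**
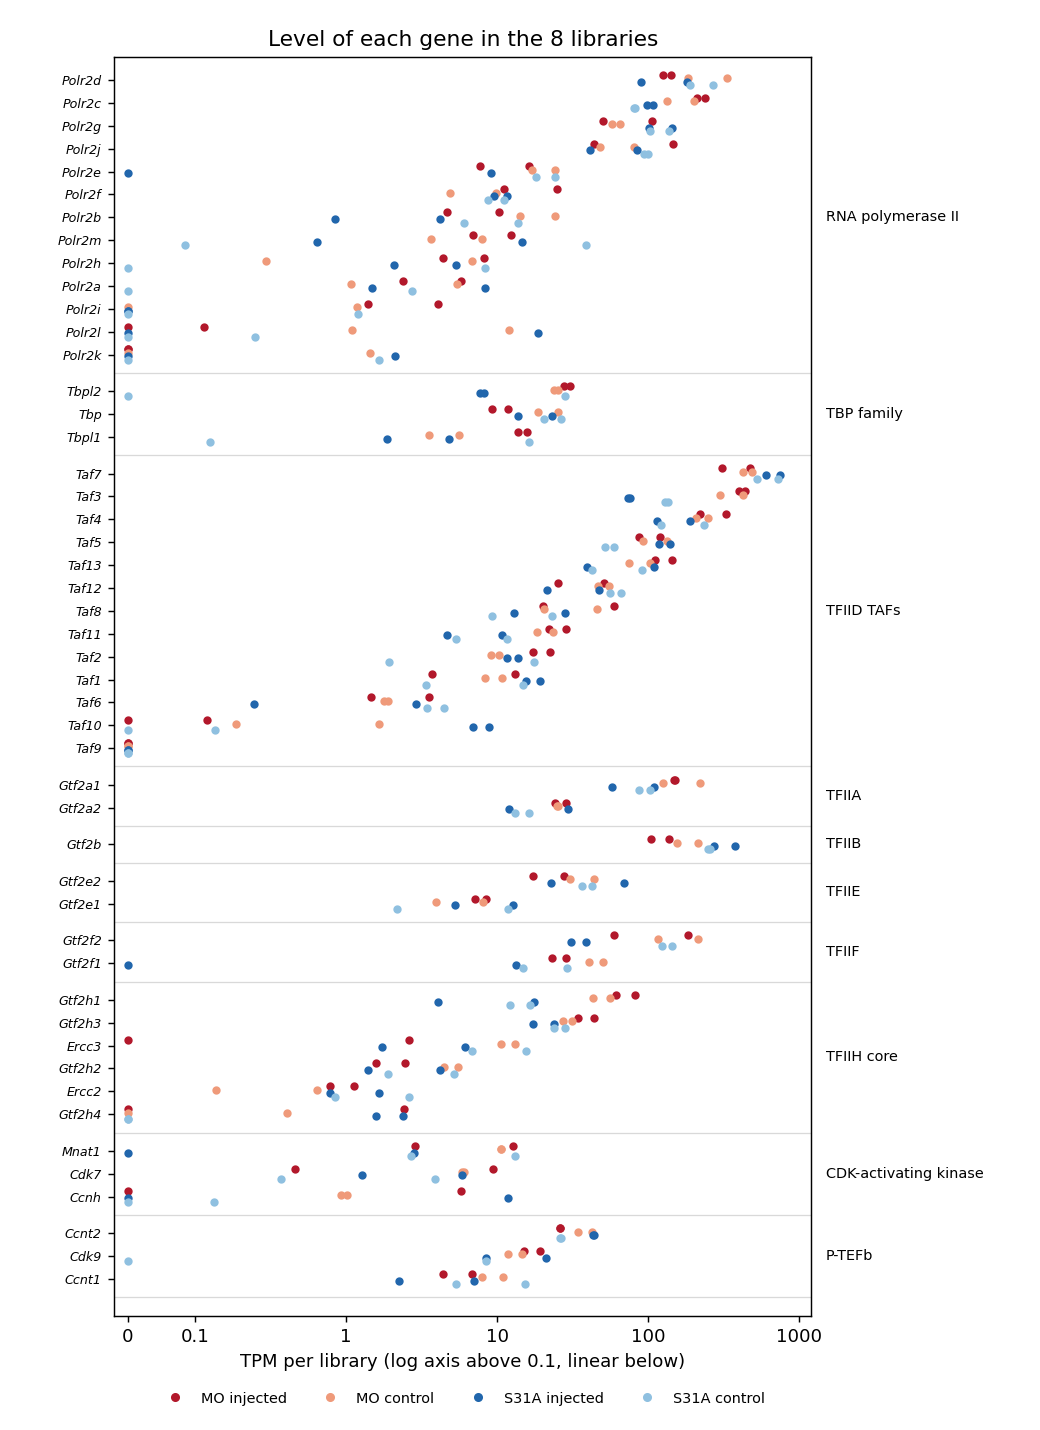
Level of each of the 48 genes in the 8 libraries, in TPM, on a log axis above 0.1 that is linear below, with genes grouped by complex and ordered by median within it. Each point is 1 library, coloured by group. Taf7, with a median of 507.5 TPM, stands at the top and Taf9 has no count in any library.

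Some of the lowest levels coincided with intronless copies of the gene elsewhere in the genome. The coding sequences of the 48 genes were aligned to all annotated mouse transcripts. For 11 of them there were 20 matches at 85% identity or more over at least 80% of their length, 12 of which held counts. The matches include Usp50, a protein-coding gene with 175 counts whose span covers the Polr2l copy Gm10774. Gm12372, a copy of Taf9 at 98.55% identity, is not in the count table. Low level and a copy did not always go together. Polr2k, Polr2i and Gtf2h4, also among the lowest, had no match, and Gtf2b, at a high level, had the copy Gm9172 with 3792 counts. For 3 genes the copy held more counts than the gene itself. Taf9, a TAF also used in the SAGA coactivator, had no count in any library, and its copy Gm14335 had 2942. Taf10, likewise shared with SAGA, had 372 counts over the 8 libraries and its copy Gm4799 had 2730. Polr2h had 231 counts and its copy Gm7511 had 640. All 3 copies are annotated as processed pseudogenes. The treatment of reads that match several places is not given in the sources used here, so how such reads were divided was not tested.

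The stretches below show how alike gene and copy are. Counts of these 3 genes are uncertain, and the part of this likeness in them was not tested. Likeness is not particular to them: the Taf13 copy Gm11189 had 98.92% identity and held 1741 counts, against 9345 for Taf13. They are coding bases 337 to 456 of Taf9, 118 bases from coding base 173 of Taf10 and 120 bases from coding base 14 of Polr2h, from GENCODE M21 transcripts (mm10 build), 5′ to 3′, with capitals at the bases where gene and copy differ. Taf9 lies on chromosome 13 (100651579 to 100656060, plus strand) and Gm14335 on chromosome 6 (115638250 to 115639059, minus strand). Taf10 lies on chromosome 7 (105739393 to 105744361, minus strand) and Gm4799 on chromosome 10 (82954344 to 82955000, plus strand). The Polr2h stretch, from chromosome 16 (20717665 to 20722267, plus strand), is the same letter for letter in Gm7511 on chromosome 12 (55067752 to 55068201, minus strand).
Taf9: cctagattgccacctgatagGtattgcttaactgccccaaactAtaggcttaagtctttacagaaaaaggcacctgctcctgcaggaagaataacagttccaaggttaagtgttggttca
Gm14335: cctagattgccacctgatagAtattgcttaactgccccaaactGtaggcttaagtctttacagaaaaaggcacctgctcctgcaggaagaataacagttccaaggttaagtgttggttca
Taf10: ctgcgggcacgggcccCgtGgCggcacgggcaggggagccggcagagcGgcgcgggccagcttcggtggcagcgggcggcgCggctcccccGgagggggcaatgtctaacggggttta
Gm4799: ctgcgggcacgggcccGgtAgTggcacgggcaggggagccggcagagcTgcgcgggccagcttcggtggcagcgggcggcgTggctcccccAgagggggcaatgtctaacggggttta
Polr2h: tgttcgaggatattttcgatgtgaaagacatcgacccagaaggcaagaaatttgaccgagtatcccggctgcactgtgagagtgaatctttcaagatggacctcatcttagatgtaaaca
Gene and copy differ at 2 bases in the Taf9 stretch and at 6 in the Taf10 stretch. An exon junction of the spliced gene falls 60 bases into the Taf10 and Polr2h stretches, while the coding sequence of Taf9 lies in 1 exon. Taf9 also shares 73.8% of its exonic bases, on the same strand, with Ak6, which held 128 counts. The exons of Taf10 overlap those of Ilk, on the opposite strand, over 45.9% of their bases.

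**Figure D2:**
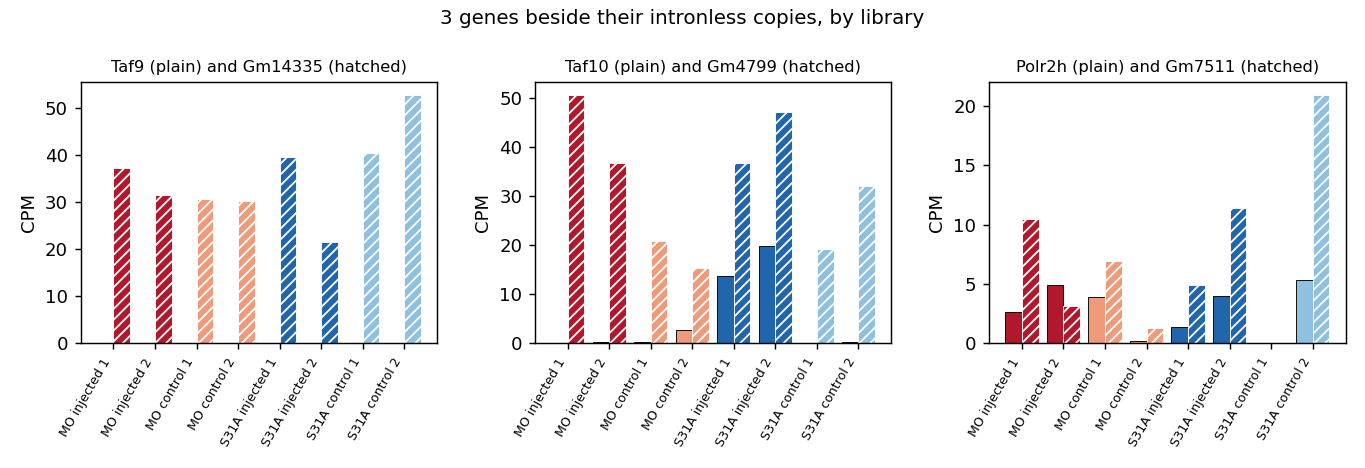
CPM of Taf9, Taf10 and Polr2h (plain bars) beside the processed pseudogene with the most counts (hatched bars) in each of the 8 libraries, coloured by group. The copy of Taf9 lies between 21.5 and 52.8 CPM while the gene is at 0, and Taf10 itself is above 10 CPM in the S31A injected libraries alone.

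With MO injection, the genes of the initiation machinery mostly stayed within 2-fold of the control. Of the 48 genes, 35 were measured, meaning that either sample reached 10 CPM. Higher by at least 2-fold were Tbpl1, Taf2 and Polr2f, which is 3 of 35, and lower were Polr2b and Ercc3, which is 2 of 35. The share past 2-fold among all genes measured was 11.3% higher and 12.5% lower, so neither count of the set stands above the background. Past 2-fold and without overlap, meaning that both MO injected libraries lay on 1 side of both control libraries, were the same 3 of 35 higher (8.57%, background 7.29%) and 2 of 35 lower (5.71%, background 10.4%). Tbpl1, Polr2f and Ercc3 passed the level filter only through the sample in which they were higher, so their ratios are a description alone. The median log2 ratio, MO injected over MO control, was 0.20 over the 35 genes and 0.03 over all 8110 measured genes. At any size of difference, the libraries of 21 of the 35 genes did not overlap, against 40.5% of all measured genes. In bulk samples, fewer cells of a type and less RNA per cell cannot be told apart.

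Tbpl1 had 18.1 and 20.5 CPM in the MO injected libraries, against 6.96 and 4.27 CPM in the MO control libraries. The injected libraries were alike and both above the controls, a 3.32-fold difference (log2 ratio 1.73, 95% interval of counting error 1.42 to 2.09). Its log2 ratio was 1.49 to 2.17 with 1 library left out. The other members of the family differed less: Tbpl2 had 16.9 and 15.2 CPM in MO injected against 13.2 and 12 CPM in MO control libraries, and Tbp had 65.2 and 50.1 CPM against 96.6 and 125.6 CPM. Tbpl2 was thus slightly above its control and Tbp below it, both without overlap and both under 2-fold (log2 ratios 0.40 and -0.82).

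Taf2, a promoter-contacting subunit of TFIID, had 48.2 and 61.3 CPM in the MO injected libraries and 26.7 and 23.0 CPM in the MO control libraries (log2 ratio 1.14, interval 0.97 to 1.31). Both injected libraries were above both controls. Without MO injected library 2 the log2 ratio of Taf2 was 0.90, under 2-fold. Polr2f, a small subunit common to all 3 RNA polymerases, had 26.2 and 11.5 CPM in the MO injected libraries and 9.67 and 4.60 CPM in the MO control libraries (log2 ratio 1.43, interval 1.15 to 1.75). One injected library of Polr2f stood close to a control library. Its log2 ratio was 0.55 without MO injected library 1 and 2.14 without MO control library 1.

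Polr2b, on chromosome 5 (77310147 to 77349324), had 8.81 and 19.2 CPM in the MO injected libraries and 25.0 and 41.6 CPM in the MO control libraries. Both injected libraries were below both controls, a 2.31-fold difference (log2 ratio -1.21, interval -1.43 to -1.005). It was under 2-fold without MO control library 2 (log2 ratio -0.88) and without MO injected library 1 (-0.74), and stood at -1.86 without MO injected library 2. Ercc3, the TFIIH translocase that opens promoter DNA, had 0 and 2.95 CPM in the MO injected libraries and 11.4 and 13.7 CPM in the MO control libraries (log2 ratio -3.19, interval -3.92 to -2.70). Its injected sample held 27 counts in all, every one in library 2. Without MO injected library 1 the log2 ratio of Ercc3 was -2.05, and without library 2 it was at least 54.8-fold lower, with a floor of 3 counts for the sample at 0.

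Several genes were named whatever their values. Polr2a had 16.4 and 6.77 CPM in the MO injected libraries and 14.6 and 2.80 CPM in the MO control libraries, so the libraries overlapped. Taf4 had 614 and 407 CPM against 436 and 349.5 CPM, overlapping as well. Cdk9, the kinase of P-TEFb, had 35.7 and 27.9 CPM against 25.5 and 19.9 CPM, higher without overlap but under 2-fold (log2 ratio 0.53). Its cyclin Ccnt1 had 25.2 and 16.1 CPM against 27.6 and 36.8 CPM, lower without overlap and under 2-fold (-0.49). Cdk7 was under the level filter in both samples, at 0.689 and 13.9 CPM against 8.26 and 8.22 CPM, and its injected libraries lay on both sides of the controls. The counts of genes past 2-fold depended on single libraries: without MO control library 1 there were 6 higher and 4 lower, without MO control library 2 there was 1 lower, and without MO injected library 1 or 2 there were 4 lower.

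Over the libraries, edgeR's quasi-likelihood test with Benjamini-Hochberg adjustment over all 8110 genes called none of the 35 genes (smallest adjusted p = 0.825, none at an unadjusted p under 0.05), and DESeq2 called none. In these tests p measures only how far the libraries of 1 sample lie apart, which can be a technical spread. All genes together gave 0 edgeR calls, 429 at an unadjusted p under 0.05, and 54 DESeq2 calls (0.666%).

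With S31A injection 14 of the genes lay past 2-fold. Of the 36 genes measured, 5 stood higher by 2-fold or more, Taf10, Polr2a, Cdk9, Taf5 and Taf1, and 9 were lower, Mnat1, Polr2e, Gtf2f2, Polr2b, Gtf2f1, Ercc3, Polr2m, Tbpl1 and Ccnt1. These were 13.9% higher and 25% lower of the 36, against a background of 14.1% higher and 16.1% lower over all 8191 measured genes. Past 2-fold and without overlap of libraries were 4 of 36 higher (11.1%, background 9.19%) and 3 of 36 lower (8.33%, background 11.4%), so the lower share stood above the background over all 36 but not among genes whose libraries did not overlap. Without S31A control library 1 the number lower was 5. Of the 14 genes, 10 (all but Taf5, Taf1, Gtf2f2 and Ccnt1) passed the level filter only through the sample in which they were higher. The median log2 ratio, S31A injected over S31A control, was 0.00 over the 36 genes and 0.02 over all genes. At any size, the libraries of 14 of the 36 genes (38.9%) did not overlap, close to the 39.5% of all genes.

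Taf5, a subunit of the TFIID core, had 167.5 and 223 CPM in the S31A injected libraries and 69.1 and 81.9 CPM in the S31A control libraries. The injected libraries lay well above their own controls, a 2.54-fold difference (log2 ratio 1.35, interval 1.26 to 1.43), and it stayed past 2-fold whichever library was left out. The MO control libraries had more Taf5 than the S31A control libraries, at 165.6 and 109.8 CPM (log2 ratio, S31A control over MO control, -0.87, without overlap). The part of a low S31A control in the difference was not tested. Gtf2f2, the small subunit of TFIIF that escorts the polymerase to the promoter, had 24.6 and 22.1 CPM in the S31A injected libraries and 74.2 and 90.5 CPM in the S31A control libraries. Both injected libraries were low and alike, a 3.49-fold difference (log2 ratio -1.80, interval -1.96 to -1.66), which also held past 2-fold in each leave-out. Leave-outs, here and for all other genes, reuse the libraries that set the call. Staying past 2-fold in them gives no further support to a difference. Its partner Gtf2f1 had 0 and 11.2 CPM in the S31A injected libraries and 20.4 and 10.8 CPM in the S31A control libraries (log2 ratio -1.61), with overlap. Without S31A injected library 1 the ratio of Gtf2f1 was -0.50, and without S31A injected library 2 it was at least 61.6-fold lower.

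Taf10 had 13.7 and 19.9 CPM in the S31A injected libraries and 0 and 0.264 CPM in the S31A control libraries. Its 347 injected counts stood against 3 control counts (log2 ratio 6.15, interval 5.37 to 9.21), with a ratio of 5.48 without S31A control library 1 and at least 60.8-fold higher without S31A control library 2. Gm4799, the copy described above, had 36.8 and 47.2 CPM in the S31A injected libraries and 19.3 and 32.2 CPM in the S31A control libraries. With the counts of the copy added, Taf10 had 50.5 and 67.1 CPM against 19.3 and 32.5 CPM, and the difference was 2.22-fold (log2 ratio 1.15). In the MO experiment Taf10 and its copy together had 50.7 and 37.0 CPM in the injected libraries and 21.3 and 18.1 CPM in the control libraries (log2 ratio 1.22), whereas Taf10 alone was under the level filter there. Adding the copies was an alternative chosen after the data were seen.

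The other higher genes were less even. Taf1, the largest TFIID subunit, had 71.9 and 64.9 CPM in the S31A injected libraries and 51.9 and 12.4 CPM in the S31A control libraries (log2 ratio 1.13), without overlap. Its control libraries lay far apart, so the ratio of Taf1 was 0.99 without S31A injected library 1, 2.49 without S31A control library 1 and 0.45 without S31A control library 2. Cdk9 had 42.2 and 19.2 CPM in the S31A injected libraries and 0 and 16.7 CPM in the S31A control libraries (log2 ratio 1.89). The lower injected and the higher control library of Cdk9 were close, with a ratio of 0.97 without S31A control library 1, 1.10 without S31A injected library 1 and at least 118-fold higher without S31A control library 2. Polr2a had 25.6 and 5.14 CPM in the S31A injected libraries and 0 and 8.18 CPM in the S31A control libraries (log2 ratio 1.95), and these overlapped. Without S31A injected library 1 the ratio of Polr2a was 0.23, without S31A control library 1 it was 1.04, without S31A injected library 2 it was 2.54 and without S31A control library 2 at least 60.9-fold higher.

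Among the lower genes, 2 further polymerase subunits had libraries without overlap. Polr2b had 8.53 and 1.93 CPM in the S31A injected libraries and 26.4 and 11.96 CPM in the S31A control libraries (log2 ratio -1.74, interval -2.06 to -1.46). Both injected libraries were below both controls, and the ratio of Polr2b was -3.27 without S31A injected library 1, but -1.05 without S31A control library 1. Polr2e, shared by all 3 polymerases, had 10.7 and 0 CPM in the S31A injected libraries and 19.9 and 27.5 CPM in the S31A control libraries (log2 ratio -1.98). It was -1.18 without S31A injected library 2 and at least 76.6-fold lower without S31A injected library 1.

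The lower genes with overlapping libraries were set by 1 or 2 libraries each. Mnat1, the assembly factor of the CDK-activating kinase, had 6.65 and 0 CPM in the S31A injected libraries and 28.9 and 6.15 CPM in the S31A control libraries (log2 ratio -2.18). The ratio of Mnat1 was -0.68 without S31A control library 1, -2.88 without S31A control library 2, at least 55.2-fold lower without S31A injected library 1 and -1.38 without S31A injected library 2. Ercc3 had 2.13 and 8.46 CPM against 18.1 and 8.18 CPM (-1.37, with -0.66 without S31A injected library 1, -2.58 without S31A injected library 2 and -0.68 without S31A control library 1). Ccnt1 had 8.95 and 31.6 CPM against 57.2 and 20.9 CPM (-1.01, with -0.11 without S31A control library 1, -0.33 without S31A injected library 1 and -2.12 without S31A injected library 2). In Polr2m and Tbpl1 the sign itself rested on S31A control library 1. Polr2m, a subunit of a polymerase form that needs Mediator, had 0.682 and 17.3 CPM in the S31A injected libraries and 38.7 and 0.0879 CPM in the S31A control libraries (-1.21, turning to 5.36 without that control library). Its ratio was -0.16 without S31A injected library 1, -4.60 without S31A injected library 2 and -2.20 without S31A control library 2. Tbpl1 had 2.64 and 7.71 CPM in the S31A injected libraries and 21.9 and 0.176 CPM in the S31A control libraries (-1.11, turning to 4.14 without S31A control library 1). Its ratio was -0.51 without S31A injected library 1, -1.999 without S31A injected library 2 and -2.09 without S31A control library 2.

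The other genes named whatever their values were not past 2-fold. Tbp had 80.7 and 154 CPM in the S31A injected libraries and 147 and 118 CPM in the S31A control libraries, and Taf4 had 382 and 260 CPM against 229 and 463 CPM, both with overlap. Tbpl2, the oocyte paralog, had 4.95 and 5.25 CPM in the S31A injected libraries and 0 and 16.6 CPM in the S31A control libraries, under the level filter in both samples. Cdk7 had 2.05 and 10.7 CPM against 0.561 and 6.15 CPM. Under the filter in both injection comparisons were Polr2h, Polr2i, Polr2k, Polr2l, Taf6, Taf9, Gtf2h2, Gtf2h4, Ercc2, Cdk7 and Ccnh, at most 18.1 CPM in any library. In MO alone Polr2m and Taf10 were also under it, and in S31A alone Tbpl2.

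**Figure D3:**
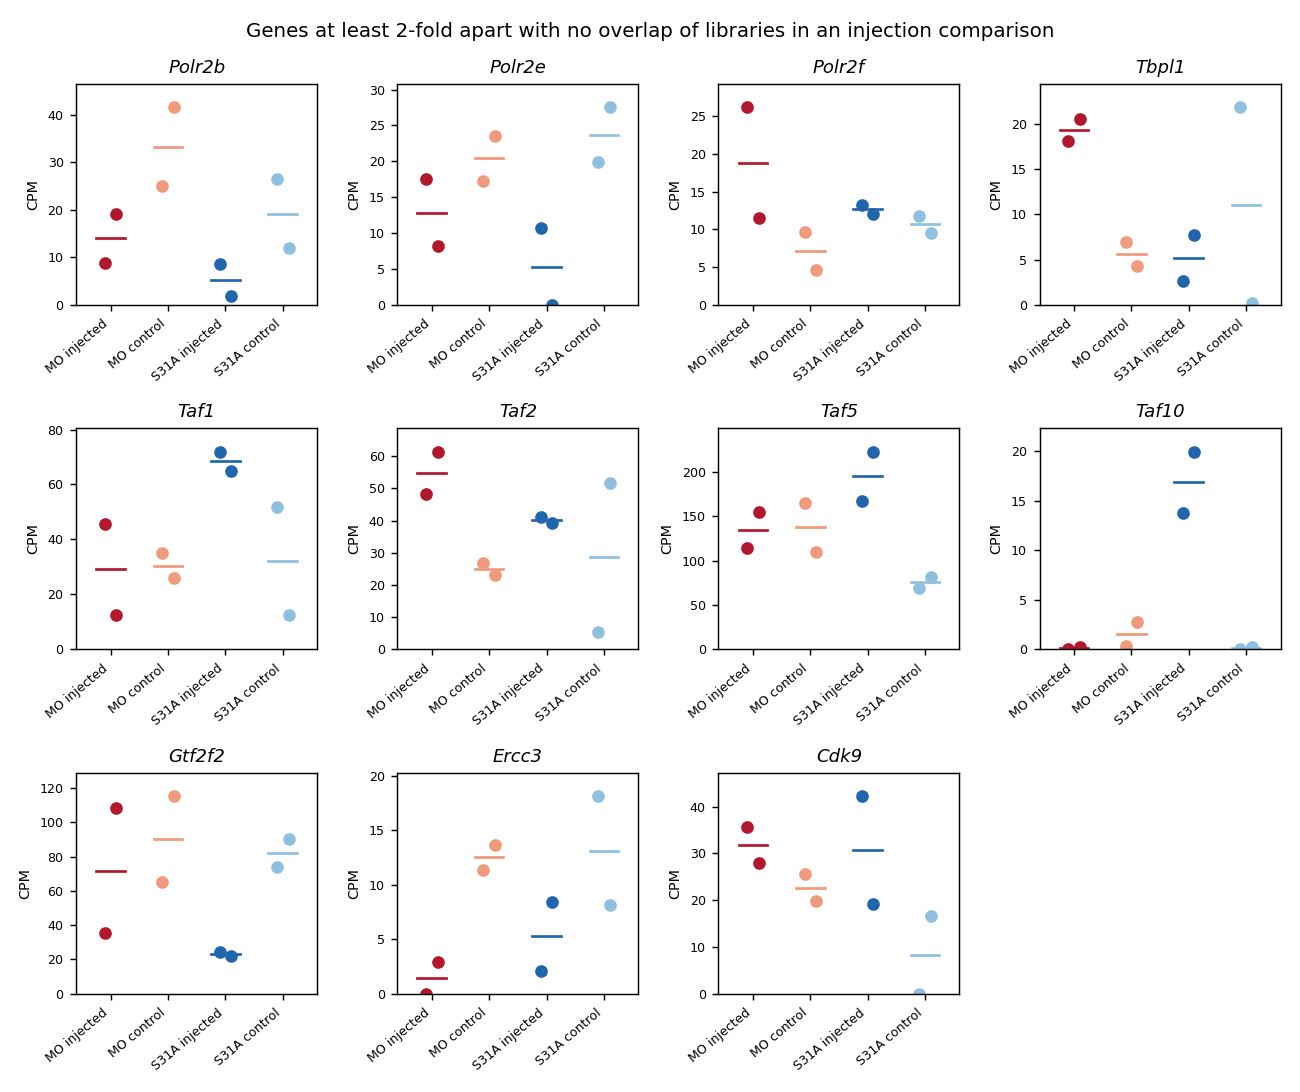
CPM of the 11 genes that were at least 2-fold apart without overlap of libraries in either injection comparison. Points are libraries and the line is the mean of the 2 libraries of a sample, which has no error since they are not replicates. Taf5 and Gtf2f2 show tight pairs in the S31A experiment, while Cdk9, Taf1 and Tbpl1 have S31A control libraries far apart.

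In the S31A experiment edgeR's quasi-likelihood test, run over libraries, again called none of the 36 genes (smallest adjusted p = 0.802, 5 genes at an unadjusted p under 0.05). All 8191 genes together gave 2 edgeR calls (0.0244%) and 490 at an unadjusted p under 0.05. DESeq2 over the same libraries called 5: Gtf2f2 (adjusted p = 0.000123), Taf5 (0.000883), Taf10 (0.00241), Ccnt2 (0.00921) and Taf3 (0.0141), among 601 calls over all genes, 7.34% of those tested. Ccnt2, the second cyclin of P-TEFb, had 231 and 264 CPM in the S31A injected libraries and 133 and 139 CPM in the S31A control libraries, and Taf3 had 209.5 and 231 CPM against 340 and 366 CPM. These p-values carry the same limit. Taf10 also passed the level filter only through the S31A injected sample, so its call gives no support to a difference.

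Libraries of 1 sample also differed from each other. Among genes that reached 10 CPM in either library of a sample, libraries 1 and 2 were at least 2-fold apart for 39.8% in the MO injected, 24.8% in the MO control, 41% in the S31A injected and 40.4% in the S31A control sample. For the polymerase and factor genes alone the shares were 30.6%, 9.09%, 45.7% and 44.4% in the same order of samples. In the S31A injected sample 4 of 35 such genes had 10 CPM or more in 1 library and no count in the other, and in the S31A control sample 2 of 36 (5.56%), against 0 in both MO samples. Over all genes these shares were 8.2% in the S31A injected, 8.39% in the S31A control, 3.61% in the MO injected and 0.735% in the MO control sample. What sets these differences between libraries was not tested.

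Set side by side, 34 of the genes were measured in both experiments, and 23 of them (67.65%) were on the same side of no change, against 54.96% of 7320 genes measured in both. The experiments have separate controls. Polr2b was the 1 gene at least 2-fold lower without overlap in both, at log2 ratios of -1.21 with MO and -1.74 with S31A, which was so for 112 of 7320 genes (1.53%). Ercc3 was also past 2-fold lower in both (-3.19 and -1.37), with overlap in S31A, and no gene was past 2-fold higher in both. Of all 7320 genes, 188 were past 2-fold lower in both and 136 past 2-fold higher in both. Taf3, Gtf2b and Ccnt2 lay on opposite sides without overlap. How many of all genes did so was not counted. Taf3 had log2 ratios of 0.40 with MO and -0.68 with S31A, Gtf2b -0.36 and 0.50, and Ccnt2 -0.44 and 0.86. The difference between the experiments was tested over the 8 libraries with an interaction term. There edgeR called none of 37 genes (smallest adjusted p = 0.719, 5 at an unadjusted p under 0.05). Of 8981 genes in all it called 3 (0.0334%), with 581 at an unadjusted p under 0.05. DESeq2 called 1 of the 37, Taf10 (adjusted p = 0.0459), against 1.97% of all genes.

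**Figure D4:**
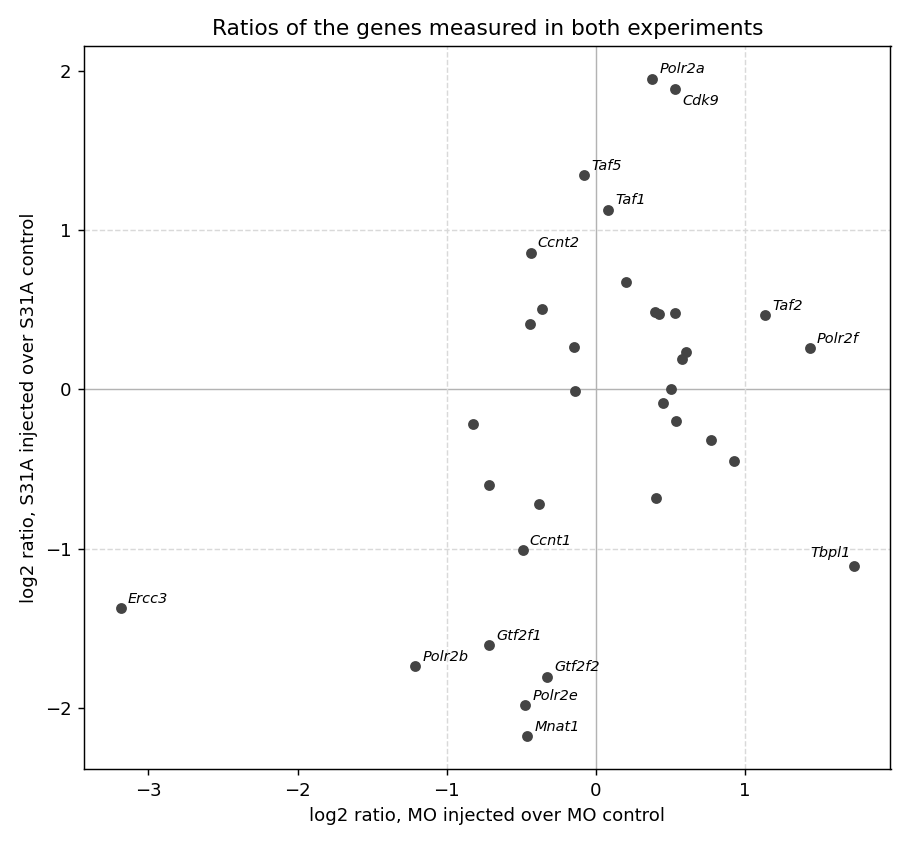
Log2 ratio of S31A injected over S31A control against log2 ratio of MO injected over MO control for the 34 genes measured in both experiments. Dashed lines mark 2-fold. Polr2b and Ercc3 lie past both lower lines and no gene lies past both upper lines.

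The 2 controls were also set against each other. Among the 35 genes measured, 2 stood higher by 2-fold or more in the S31A control than in the MO control (background 13.6%) and 4 lower (background 16.2%). Past 2-fold and without overlap were 1 of 35 higher (2.86%, background 9.67%) and 4 of 35 lower (11.4%, background 14.5%). Gtf2h1, a core TFIIH subunit, had 14.9 and 20.9 CPM in the S31A control libraries and 48.7 and 61.2 CPM in the MO control libraries (log2 ratio -1.51), past 2-fold in each leave-out. Taf3 had 340 and 366 CPM in the S31A control and 728 and 998 CPM in the MO control libraries (-1.19, but -0.99 without MO control library 2). Cdk9 (-1.37) and Taf11 (-1.06) were also lower without overlap, and Polr2g was higher, at 70.5 and 54.7 CPM in the S31A control and 30.9 and 26.3 CPM in the MO control libraries (1.15). Cdk9 was -0.45 without S31A control library 1 and at least 82.5-fold lower without S31A control library 2, Polr2g was 0.94 without S31A control library 1, and Taf11 was -0.94 without MO control library 2, -0.66 without S31A control library 2 and -1.71 without S31A control library 1. Polr2m was higher with overlap (1.99, but -4.58 without S31A control library 1 and 2.98 without S31A control library 2). Cdk9 and Polr2m passed the level filter only through the control in which they were higher. Their ratios between the controls are a description alone. Without MO control library 1 there were 5 higher genes, and without MO control library 2, S31A control library 1 or S31A control library 2 there were 8, 7 and 8 lower genes. DESeq2 over the libraries called Taf3 (adjusted p = 0.000628) among 4.32% of all genes, and edgeR's quasi-likelihood test called none (smallest adjusted p = 0.296, 4 at an unadjusted p under 0.05, 818 over all genes).

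The promoters of these genes were searched for 4 short motifs, which the choice by name did not use. RefSeq windows of 300 bases (250 before to 50 after the start, GRCm38.p6 build) were found for 40 of the 48 genes, 46 windows in all. The ETS core TTCCGG was present on either strand in 52.2% of them, against 14.9% of all 32851 windows and 18.7% of the 21262 windows of protein-coding genes. The GC box GGGCGG was present in 67.4%, against 35.7% of all and 46.2% of protein-coding windows. The TATA box TATAAA was present in 17.4%, against 13.6% and 12.6%, and the CCAAT box in 30.4%, against 37.4% and 38.2%. A match of letters is a description and not a bound site. No motif contains another, though neighbouring matches may share letters.

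The windows of 3 genes named above are shown 5′ to 3′, with capitals at matches to any of the 4 motifs. They are Polr2b at chr5:77310234-77310533 (plus strand), Taf5 at chr19:47067498-47067797 (plus strand) and Gtf2f2 at chr14:76010816-76011115 (minus strand).
Polr2b: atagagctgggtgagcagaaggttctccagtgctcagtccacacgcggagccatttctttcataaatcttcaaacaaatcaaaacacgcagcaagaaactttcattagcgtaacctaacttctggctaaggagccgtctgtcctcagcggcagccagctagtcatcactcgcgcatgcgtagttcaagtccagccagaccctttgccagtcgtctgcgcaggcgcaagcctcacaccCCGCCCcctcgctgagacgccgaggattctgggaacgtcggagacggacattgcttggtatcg
Taf5: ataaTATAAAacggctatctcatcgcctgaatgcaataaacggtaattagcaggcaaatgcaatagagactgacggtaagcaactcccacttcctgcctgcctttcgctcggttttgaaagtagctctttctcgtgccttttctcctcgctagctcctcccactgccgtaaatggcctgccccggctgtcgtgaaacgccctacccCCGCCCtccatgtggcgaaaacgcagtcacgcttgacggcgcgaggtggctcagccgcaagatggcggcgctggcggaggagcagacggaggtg
Gtf2f2: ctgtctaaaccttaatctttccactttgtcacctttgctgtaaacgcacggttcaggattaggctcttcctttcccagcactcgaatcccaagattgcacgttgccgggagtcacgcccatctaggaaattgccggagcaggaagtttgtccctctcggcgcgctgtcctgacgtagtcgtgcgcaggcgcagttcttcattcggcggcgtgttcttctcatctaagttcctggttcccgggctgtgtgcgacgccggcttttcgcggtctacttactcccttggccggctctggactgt
Polr2b has 1 GC box, Taf5 has 1 GC box and 1 TATA match far upstream of the start, and Gtf2f2 has none of the 4.

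Genes that work next to this machinery were counted in the same way, against background shares of 11.3% higher and 12.5% lower with MO and 14.1% higher and 16.1% lower with S31A. Of 33 Mediator genes, the coactivator that joins activators to the polymerase, 25 were measured in the MO experiment, with 3 higher and 3 lower by at least 2-fold (12% each). Cdk8, the Mediator kinase, was named after its values were seen. It had 567 and 527 CPM in the MO injected libraries and 247 and 216 CPM in the MO control libraries (log2 ratio 1.28), past 2-fold in each leave-out. Med22 had 490 and 257.5 CPM in the MO injected libraries and 166 and 123 CPM in the MO control libraries (1.45, but 0.76 without MO injected library 1). Med7 was lower with MO (-1.51, but -0.82 without MO control library 2 and -0.92 without MO injected library 1). In the S31A experiment 27 Mediator genes were measured, with 5 higher (18.5%) and 3 lower (11.1%). Med20 had 25.0 and 24.8 CPM in the MO injected libraries and 3.15 and 0.164 CPM in the MO control libraries (3.65). It had 0.426 and 0 CPM in the S31A injected libraries and 39.0 and 33.7 CPM in the S31A control libraries (-6.75). In both experiments Med20 passed the level filter only through the sample in which it was higher. Its ratio with MO was 6.52 without MO control library 1 and 2.99 without MO control library 2, and with S31A it was -6.10 without S31A injected library 2 and at least 116.5-fold lower without S31A injected library 1. Med14, the backbone of Mediator, ran the other way: 15.4 and 16.1 CPM in MO injected against 66.9 and 56.7 CPM in MO control libraries (-1.95), and 92.2 and 127.5 CPM in S31A injected against 19.1 and 38.6 CPM in S31A control libraries (1.89, and 2.54 without S31A control library 2).

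Of 36 pausing and elongation factor genes, 23 were measured in the S31A experiment, with 3 higher (13.0%) and 6 lower (26.1%), all without overlap (background 9.19% higher and 11.4% lower), and a median log2 ratio of -0.40. In the MO experiment 25 were measured, with 2 higher and 2 lower (8% each) and a median of -0.15. The largest ratio there was that of Nelfb (4.29), with 260 counts in the MO injected and 8 in the MO control sample. Nelfb passed the level filter only through the injected sample. Leo1, a subunit of the PAF1 elongation complex, had 0.512 and 1.71 CPM in the S31A injected libraries and 24.0 and 14.4 CPM in the S31A control libraries (-4.06). Hexim2, an inhibitor of P-TEFb, had 0.938 and 0 CPM in the S31A injected libraries and 26.2 and 6.86 CPM in the S31A control libraries (-4.71). Higher was Aff4, the scaffold of the super elongation complex, at 17.0 and 18.2 CPM in the S31A injected libraries. It had no count in the S31A control libraries (at least 129-fold). The bound for Aff4 was 67.9-fold without S31A control library 1 and 64.6-fold without S31A control library 2. Aff4 was also higher with MO injection (log2 ratio 1.88). There too it passed the level filter only through the injected sample, so this ratio is a description alone. Eaf1 was higher with S31A, with 70.0 and 11.5 CPM against 4.11 and 0.879 CPM (4.12). With S31A, Leo1, Hexim2, Aff4 and Eaf1 passed the level filter only through the sample in which they were higher. Their ratios are a description alone. As these 4 genes were chosen for large ratios, staying past 2-fold in each leave-out gives no further support. Leo1 was at -3.43 without S31A injected library 1 and -4.97 without S31A injected library 2. Hexim2 ranged from -3.42 without S31A control library 1 to at least 52.1-fold lower without S31A injected library 1. Eaf1 ranged from 2.13 without S31A injected library 1 to 5.51 without S31A control library 1.

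Of 35 genes of RNA polymerases I and III, 19 were measured with MO (2 higher and 2 lower, 10.53% each, median -0.05) and 21 with S31A (4 higher and 4 lower, 19.0% each, median 0.02). Gtf3c6, of the polymerase III factor TFIIIC, had 24.3 and 26.3 CPM in the S31A injected libraries and no count in the S31A control libraries. In the MO control libraries it had 12.7 and 16.6 CPM. With S31A it passed the level filter only through the injected sample. Of 29 other subunits and paralogs of the general factors, 16 were measured with MO (2 higher and 2 lower, 12.5% each, median 0.01) and 17 with S31A (1 higher and 1 lower, 5.88% each, median -0.19). None of the genes of these 4 lists passed edgeR's test over the libraries in either comparison.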

How the data were processed

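Per the labels' protocols, PCR-amplified cDNA from total RNA of zygotes went into NEBNext Ultra II DNA libraries. The submitters' processing notes name the mm10 build and FastQC, Bowtie2, featureCounts and DESeq2. Versions, annotation, strand setting and the handling of reads that match several places are not given in the sources used here, so overlapping and antisense genes and near-identical copies are uncertain. Bowtie2 does not split reads across introns. The authors deposited unnormalized whole-number counts for each gene, with gene lengths in bases. A chi-square per degree of freedom of 39.3 to 105 between the libraries of a sample showed that they were not copies of each other, and they were not counted as replicates.

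Both libraries of a sample were added up and normalised by TMM in edgeR 4.0.16 under R 4.3.3. Ratios are log2 ratios of CPM (prior count 2). A gene was measured where either sample reached 10 CPM, and called at 2-fold or more. Per-library CPM used TMM factors over the 8 libraries. TPM used the deposited gene lengths. Ratio intervals are 95% Clopper-Pearson (exact, from each sample's part of the counts), and a sample at 0 is given a floor of 3 counts. Reads carry no molecular identifiers, so both cover counting error only. Libraries "did not overlap" where both libraries of a sample lay on 1 side of both of the other. The libraries were also compared by edgeR's quasi-likelihood test and by DESeq2 1.42.0, and the S31A ratio was set against the MO ratio with an interaction term. Copies were found with BLAST+ 2.17.0 against GENCODE M21, where the coordinates of all 48 genes were the same. Steps were tested on simulated counts.

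The genes, lists and tests were chosen with earlier results of these data known. Any of the 48 genes could be named. Values of every library compared were given for genes at least 2-fold apart with MO or S31A injection. The same was done for Polr2a, Polr2b, Tbp, Tbpl1, Tbpl2, Taf4, Cdk7, Cdk9 and Ccnt1. It was also done for up to 4 genes per related list and comparison with the largest ratios and no overlap, though not for every such gene. The alternatives were total-count and DESeq2 scaling, filters of 1 CPM, 50 CPM and none, prior counts of 0.5 and 5, the mean of log2 CPM per library, and leaving out each library. Adding copies to their gene and the interaction test were added after the data were seen.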

Additional observations from a re-analysis of the deposited data

Results flagged for a closer look

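Taf3, Gtf2b and Ccnt2 were picked out because all their libraries lay on opposite sides of the control in the MO and the S31A experiments. The share of all genes for which this held was not counted. Taf3 had a log2 ratio of 0.405 with MO injection and -0.684 with S31A injection. Gtf2b had -0.36 with MO and 0.503 with S31A, and Ccnt2 had -0.437 with MO and 0.859 with S31A. The gap between experiments, S31A minus MO, was tested over the 8 libraries: for Taf3 it was -1.09 (edgeR adjusted p = 0.741, DESeq2 adjusted p = 0.162), for Gtf2b 0.86 (0.768 and 0.383) and for Ccnt2 1.30 (0.719 and 0.119). None of these passed.

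Taf10 was picked out because the same gap, 8.998 on the log2 scale, passed DESeq2's interaction test over the libraries (adjusted p = 0.0459) and not edgeR's (adjusted p = 0.746). It passed the level filter only through the S31A injected sample, and the spread in this test is that of 2 count columns of 1 sample, so the call gives no support to a difference. It rests on 347 counts in the S31A injected sample, 3 in the S31A control, 2 in the MO injected and 20 in the MO control sample. With the counts of its copy added, the log2 ratios were 1.15 with S31A and 1.22 with MO.

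The processed pseudogenes Gm14335 (2942 counts over the 8 libraries), Gm4799 (2730 counts) and Gm7511 (640 counts) lie outside the 48 genes and were picked out because each held more counts than the gene it copies, Taf9, Taf10 and Polr2h. Gm14335 ranged over 21.5 to 52.8 CPM, Gm4799 over 15.3 to 50.7 CPM and Gm7511 over 0 to 20.9 CPM.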

How the results depend on the processing

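The count of genes at least 2-fold apart was 3 higher and 2 lower with MO and 5 higher and 9 lower with S31A under DESeq2 scaling, total counts and prior counts of 0.5 and 5. It depended on the level filter. At 1 CPM there were 7 higher and 5 lower with MO, 8 higher with S31A, and 4 higher and 9 lower between controls, and with no filter 7 and 6, 8, and 4 and 10. At 50 CPM there were 1 and 0 with MO, 2 and 1 with S31A, and 1 and 2 between controls. Taking the mean of log2 CPM per library gave 1 higher gene between controls, and turned Polr2m (0.236 with S31A, -0.610 between controls) and Tbpl1 (0.722 with S31A); S31A control library 1 lay far above library 2 for both. Leaving out 1 library at a time gave 3 to 6 higher and 1 to 4 lower genes with MO, 4 to 7 higher and 5 to 11 lower with S31A, and 2 to 5 higher and 5 to 8 lower between controls.

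Over the libraries, edgeR called 0 genes in each comparison. With 1 library left out it called 0 to 1 with MO and 0 to 3 between controls, where the lone library is assumed to vary like the others, and at 50 CPM it called 1 between controls. DESeq2 called 5 with S31A, 1 between controls and 1 in the interaction test. No paired analysis was possible because each group is 1 sample and the library numbers tie no library of a group to one of another. Among alternatives for single genes and medians, 286 values stayed within the counting interval of the gene or, for medians, the spread between libraries, 117 moved beyond it, and 3 that had been past 2-fold turned. Of the 286 and 117, 16 changed sign: medians, Polr2a and Taf4 with MO, and Taf4 and Tbp with S31A, at most 0.45 in size before. Without S31A control library 1, Polr2m and Tbpl1 were under the level filter. With 1 sample per group, the spread between embryos or injections is not known, and genes near 10 CPM rest on few counts.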

Other observations

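Of 27 measured Mediator genes, 5 were higher and 5 lower by 2-fold or more in the S31A control than in the MO control (18.5% each). Of 24 pausing and elongation factor genes 1 was higher (4.17%) and 5 lower (20.8%), against 13.6% higher and 16.2% lower over all measured genes. Med20 had 39.0 and 33.7 CPM in the S31A control libraries and 3.15 and 0.164 CPM in the MO control libraries (log2 ratio 4.19, with 7.06 without MO control library 1 and 3.53 without MO control library 2). Med19 had 6.17 and 9.50 CPM in the S31A control libraries and 53.9 and 39.8 CPM in the MO control libraries (-2.55). Bdp1, a subunit of the RNA polymerase III factor TFIIIB, had no count in the S31A control libraries. It had 18.7 and 15.1 CPM in the MO control libraries (at least 122-fold lower in the S31A control). The bound for Bdp1 was 64.3-fold without S31A control library 1 and 61.15-fold without S31A control library 2. Bdp1 had 35.7 and 1.71 CPM in the S31A injected libraries. Between the controls, Med20, Med19 and Bdp1 passed the level filter only through the control in which they were higher.

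Several genes under the level filter were detected in 1 library of a sample and nearly absent from the other. Ccnh, the cyclin of the CDK-activating kinase, had 0 and 18.1 CPM in the S31A injected libraries, 0 and 0.176 CPM in the S31A control libraries, 0 and 7.10 CPM in the MO injected libraries and 1.09 and 1.15 CPM in the MO control libraries. Polr2l had 13.4 and 0 CPM in the S31A injected libraries, 0 and 0.176 CPM in the S31A control libraries, 0.0766 and 0 CPM in the MO injected libraries and 7.50 and 0.658 CPM in the MO control libraries. Gtf2h4, a TFIIH core subunit, had 3.22 and 0 CPM in the MO injected libraries and 0 and 0.493 CPM in the MO control libraries. In the S31A experiment its libraries were alike within a sample, at 3.41 and 2.57 CPM in the injected and no count in the control libraries.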
